A study of Arabidopsis thaliana with 12 samples.

Results

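NAC genes encode a large family of plant transcription factors, and 56 of the 20017 genes in the deposited expression table were taken as members. A gene was a member where its name in the table was NAC or ANAC followed by a number, or where its description contained the words NAC domain-containing protein. The name alone gave 54 genes, and the description added NTL8 and anac096. The rule used no expression value.

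RNA came from roots of seedlings of the thale cress, Arabidopsis thaliana, kept for 7 days on agar plates with diluted Murashige and Skoog salts. The 4 groups were the *crr* mutant without added phosphate (*crr* -Pi), *crr* with 1 mM phosphate (*crr* +Pi), the wild type Col-0 without added phosphate (Col-0 -Pi) and Col-0 with 1 mM phosphate (Col-0 +Pi), with 3 libraries in each. According to the study's methods the mutant was *crr-1*, a single T-DNA insertion line in the Col-0 background, roots of many seedlings were pooled for each library, and the -Pi medium still held traces of phosphate. CRR belongs to the CYBDOM proteins, in which a DOMON domain is joined to a cytochrome b561 domain, and the study describes it as a ferric reductase that affects root growth when phosphate is scarce.

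Each value below is the authors' mean log2 CPM of the 3 libraries of a group, where CPM is the count of a gene scaled to a common library size, 0 stands for 1 CPM and each unit is a doubling. No single library could be read from these means, so no standard deviation, interval or test accompanies a difference, and the number of reads behind a mean is not known here. A difference was called where it reached 2-fold, which is 1 log2 unit, and where the higher of the compared means was at least 1 log2 CPM. A call is therefore a statement about size alone. The Pi response in *crr* and that in Col-0 come from different libraries, and so do the genotype differences under -Pi and under +Pi. The genotypes and the media are different conditions and not replicates, so repeatability could not be checked here.

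NAC proteins share a conserved DNA-binding domain at the amino terminus and differ in the rest of the protein. Members are known for switching on secondary wall formation in xylem vessels, for clearing the nucleus from sieve elements, for the death of root cap cells, for setting organ boundaries, for leaf senescence and for responses to abscisic acid, wounding and mitochondrial or proteasome stress. A subset carries a membrane anchor that holds the protein outside the nucleus until it is released. Several members are silenced after transcription by the microRNA miR164, which pairs with a site in their coding sequence.

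The labels held up in the transcript that the mutation targets. CRR (AT3G25290) stood at -0.11 log2 CPM in *crr* -Pi and -0.38 in *crr* +Pi, against 5.64 in Col-0 -Pi and 5.99 in Col-0 +Pi, and was thus 53.9-fold lower in *crr* than in Col-0 under -Pi and 82.6-fold lower under +Pi. Root identity was visible in the summed CPM of 5 root hair markers (1090 in *crr* -Pi, 327 in *crr* +Pi, 969 in Col-0 -Pi and 329 in Col-0 +Pi) and of 4 endodermis markers (370, 277, 284 and 297 in the same order of groups). Of 12 marker genes of green tissue, 10 were in the table, and their summed CPM was 56.7 in *crr* -Pi, 153 in *crr* +Pi, 72.5 in Col-0 -Pi and 148 in Col-0 +Pi. None of these markers was at the lowest value of the table, and their part in the results below was not tested. In pooled roots, fewer cells of a type and less RNA per cell cannot be told apart.

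The sequences of miR164 and of its closest matches among the measured genes are shown here because the genes that carry them include NAC079, called in both genotypes below, and others that did not share its response. The mature sequences are printed 5′ to 3′ from the RefSeq genome TAIR10.1, with the seed, bases 2 to 8, in capitals. MIR164a and MIR164b give the same letters, and MIR164c ends in another base.
miR164a: tGGAGAAGcagggcacgtgca
miR164b: tGGAGAAGcagggcacgtgca
miR164c: tGGAGAAGcagggcacgtgcg

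The exons of 19998 measured genes were scanned for the reverse complement of miR164a, with every unmatched base, G:U pairs included, counted as a mismatch. This scan was chosen after the expression values had been seen. No gene matched with 0 or 1 mismatches. At up to 2 mismatches 3 genes matched and 3 of them were members, at up to 3 mismatches 6 genes matched and 5 were members, and at up to 4 mismatches 13 genes matched and 6 were members. The remaining gene at 3 mismatches was AT3G12977, a NAC gene without a name in the table and so outside the rule. The sites are printed 5′ to 3′ on the strand of the transcript with the mismatches in capitals, and all lie in the coding part of exon 3 of genes with 3 exons.
NAC021 (chr1:20947142-20947162, minus strand): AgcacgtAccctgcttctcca
NAC079 (chr5:2436958-2436978, plus strand): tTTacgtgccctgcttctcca
NAC100 (chr5:24701687-24701707, minus strand): tCTacgtgccctgcttctcca
AT3G12977 (chr3:4145631-4145651, plus strand): AgcaTgtAccctgcttctcca
NAC054 (chr3:5111137-5111157, plus strand): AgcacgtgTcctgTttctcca
NAC098 (chr5:21902301-21902321, minus strand): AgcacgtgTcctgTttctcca
NAC92 (chr5:15858797-15858817, minus strand): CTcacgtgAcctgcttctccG

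The bases of the site opposite the seed are its 3′ part without the last base, and they held 0 mismatches in NAC021, NAC079, NAC100, AT3G12977 and NAC92 and 1 in NAC054 and NAC098. NAC054 is CUC1 and NAC098 is CUC2, a pair of organ boundary genes whose sites had the same letters. NAC021 is NAC1, known from auxin signalling in lateral root formation, and NAC92 is ORE1, a driver of leaf senescence. Levels of miR164 itself were not analysed here.

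NAC transcripts spanned a wide range of levels in these roots. The mean over the 4 groups was at least 5 log2 CPM for 15 members, between 1 and 5 for 25 and below 1 for 16, with a median of 3.38 and a range from -1.66 to 7.14. No member was at the lowest value of the table in any group. The distance between the highest and the lowest group mean was under 0.5 log2 units in 32 members and at least 1 in 11. The same count was not taken over all genes. Over the members passing the level limit, the median Pi response without sign was 0.36 log2 units in *crr* and 0.28 in Col-0. Over all genes passing it, the median was 0.19 in *crr* and 0.16 in Col-0. The 2 sets were not matched for level, and differences depend on it. Over all genes the median difference between the genotypes under +Pi, without sign, was 0.155 log2 units at 1 to 3 log2 CPM and 0.049 from 7. The part of level in the medians of the members was not tested.

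Levels are compared between genes only after division by the exon length. On this scale NAC083 was the highest, with a mean of 6.38 log2 CPM per kb. NAC083 is VNI2, a repressor of the vessel regulator VND7. ANAC102, a factor of low-oxygen and chloroplast stress responses, followed at 6.07 log2 CPM per kb, and NAC082, which acts in the response to defective ribosome assembly, at 5.80. NAC078, a proteasome stress regulator, stood at 5.35 log2 CPM per kb, ANAC087 of the root cap at 5.13 and NAC081 at 5.13. At the other end stood CUC2 (NAC098) at -2.20 log2 CPM per kb, NAC005 at -1.38 and CUC1 (NAC054) at -1.04. The order of neighbours on this scale, such as ANAC087 and NAC081, rests on differences that cannot be set against a spread between libraries.

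**Figure D1:**
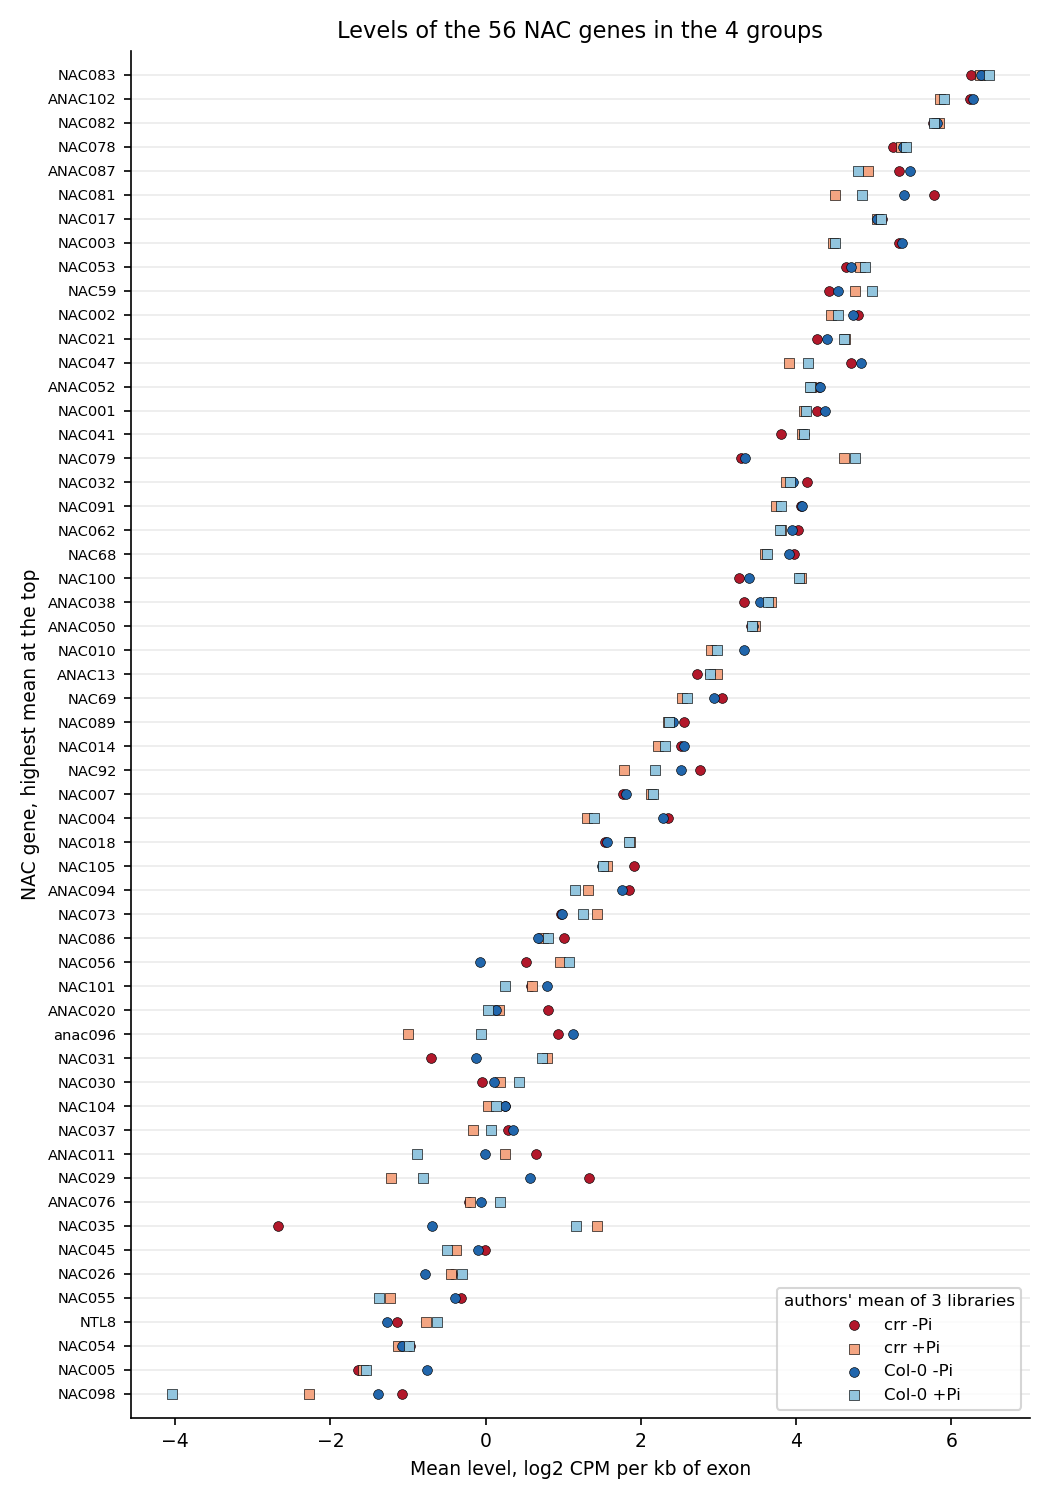
Mean level of each of the 56 NAC genes (rows) on the x axis in log2 CPM per kb of exon, with 1 point for each group; circles are -Pi, squares are +Pi, red tones *crr* and blue tones Col-0. Genes are ordered by their mean, from NAC083 (6.38) at the top to NAC098 (-2.20) at the bottom, and the points of most genes lie close together while those of NAC035, NAC029, NAC098 and anac096 are spread.

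Few NAC transcripts differed 2-fold between the media in either genotype. In *crr* (*crr* -Pi against *crr* +Pi), 46 members passed the level limit, 4 were higher under -Pi and 3 were lower, which is 8.70% and 6.52% of them, against 3.88% higher and 2.76% lower of all 18213 genes that passed. In Col-0 (Col-0 -Pi against Col-0 +Pi), 46 members passed, 1 was higher and 3 were lower, or 2.17% and 6.52%, against 3.20% higher and 2.11% lower of 18224 genes. The members passing the limit had a median response of 0.19 log2 units in *crr* and 0.04 in Col-0, against 0.01 in *crr* and 0.02 in Col-0 over all genes passing it. In *crr*, NAC029 and anac096 passed the limit through the -Pi mean alone, and NAC031 and NAC035 through the +Pi mean alone. In Col-0, anac096 passed through the -Pi mean alone, and NAC035 and NAC056 through the +Pi mean alone. With a limit of 3 log2 CPM, 1 of 31 members was higher in *crr* (2.82% of all genes) and 1 lower (2.02%). The counts are a handful of genes, and no statement about the family as a group rests on them.

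The members that reached 2-fold in both genotypes were anac096, higher under -Pi, and NAC035 and NAC079, lower under -Pi. That is 1 higher and 2 lower of 44 members, against 2.72% higher and 1.34% lower of the 18054 genes that passed the limit in both. These calls come from separate libraries for each genotype, which are different conditions and not replicates.

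anac096 (AT5G46590, chr5:18905258-18907052 on the TAIR10 build) encodes a factor known to act with abscisic acid-responsive bZIP proteins in dehydration responses. It stood at 1.55 log2 CPM in *crr* -Pi, -0.38 in *crr* +Pi, 1.75 in Col-0 -Pi and 0.56 in Col-0 +Pi. Both -Pi means were thus above both +Pi means, and the difference was 1.93 log2 units (3.81-fold) in *crr* and 1.19 (2.28-fold) in Col-0. Of all genes passing the limit, 1.32% were at least as far higher in *crr* and 2.47% in Col-0. The lower mean of *crr* +Pi made the response in *crr* the larger one by 0.74 log2 units, which did not reach 2-fold. With 1 CPM added before the logarithm the responses were 1.15 in *crr* and 0.82 in Col-0, and the call in Col-0 was lost.

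NAC079 (AT5G07680, chr5:2435795-2437661), one of the closest matches to miR164 shown above, is also known as NAC4, a gene of the nitrate-dependent lateral root pathway. Its mean was 3.99 log2 CPM in *crr* -Pi, 5.32 in *crr* +Pi, 4.04 in Col-0 -Pi and 5.46 in Col-0 +Pi. The response was -1.33 log2 units (2.51-fold lower under -Pi) in *crr* and -1.42 (2.68-fold lower) in Col-0, so that the genotypes differed by 0.09. Among the called members it was the one with the closest responses in the 2 genotypes, and among all genes 1.52% were as far lower in *crr* and 0.905% in Col-0.

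NAC035 (AT2G02450, chr2:647538-650820) encodes LOV1, known for delaying flowering and for a part in the response to cold. Its mean was -1.73 log2 CPM in *crr* -Pi, 2.38 in *crr* +Pi, 0.25 in Col-0 -Pi and 2.1 in Col-0 +Pi. The response was -4.11 log2 units (17.3-fold lower under -Pi) in *crr* and -1.85 (3.61-fold lower) in Col-0. In *crr* only 4 of 18213 genes, NAC035 included, were that far lower, and in Col-0 79 of 18224 were. The folds depend on the low -Pi means, and with 1 CPM added before the logarithm the responses were -2.26 log2 units in *crr* and -1.27 in Col-0. The *crr* -Pi mean lay far below the other 3 means, while the +Pi means of the genotypes were 0.28 log2 units apart.

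Other measured facts stand beside NAC035. Of its 50-base exon windows, 21.1% also lie in any other gene. The gene sharing the most was the overlapping AT2G02455 on the opposite strand, which was not analysed here. The strand setting of the counting is not given in the sources used here, so reads of both genes cannot be told apart where they overlap. The summed CPM of the green tissue markers given above was also lowest in *crr* -Pi, and 8 of the 9 markers passing the limit were at least 2-fold lower under -Pi in *crr* and 4 of 9 in Col-0. Their part in the NAC035 result was not tested.

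**Figure D2:**
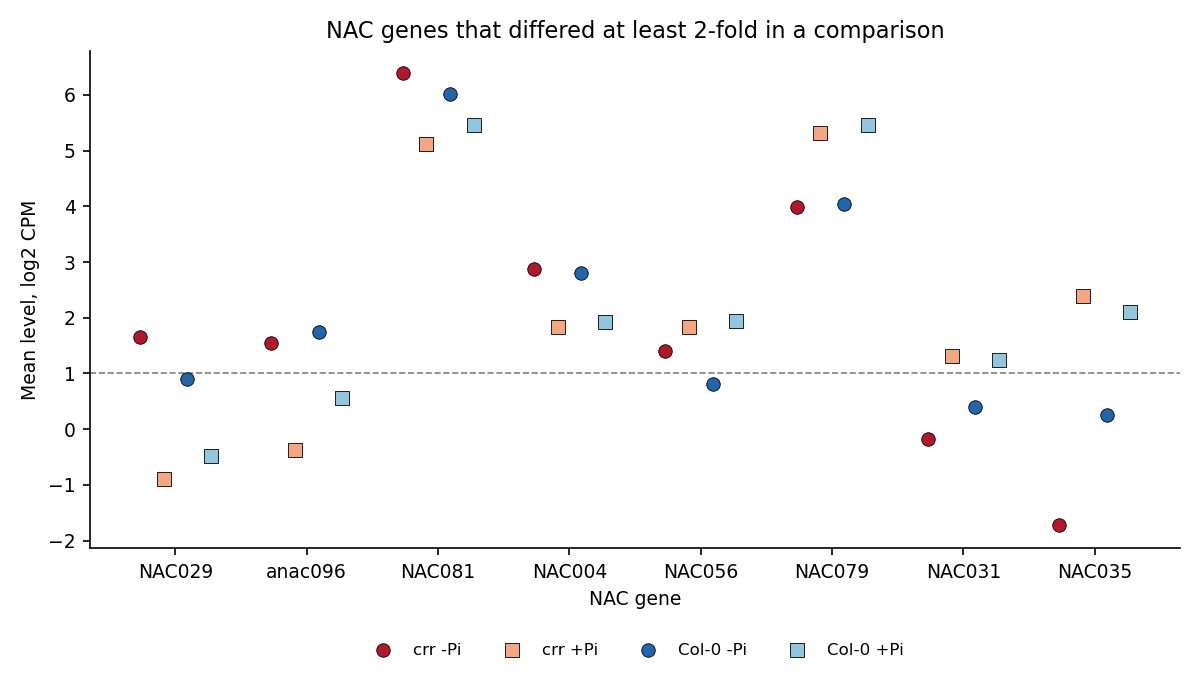
Group means (y axis, log2 CPM) of the 8 NAC genes called in at least 1 comparison (x axis, from the highest to the lowest Pi response in *crr*), with 1 point for each group in the order *crr* -Pi, *crr* +Pi, Col-0 -Pi, Col-0 +Pi; the dashed line is the level limit of 1 log2 CPM. The *crr* -Pi mean of NAC035 (-1.73) stands apart from its other means, while NAC079 has nearly the same pair of means in both genotypes.

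A further 4 members reached 2-fold in *crr* alone under this rule, although the difference of their responses between the genotypes reached 2-fold in NAC029 only. NAC029 (AT1G69490, chr1:26122080-26123514) is NAP, a senescence factor that switches on SAG113, a phosphatase gene of abscisic acid signalling. Its mean was 1.66 log2 CPM in *crr* -Pi, -0.90 in *crr* +Pi, 0.89 in Col-0 -Pi and -0.48 in Col-0 +Pi. The response in *crr* was 2.56 log2 units (5.88-fold higher under -Pi), as large or larger in 0.774% of genes. In Col-0 the means also differed in this direction, by 1.38 log2 units, but both were below the level limit, so no call was made there. With 1 CPM added the response in *crr* was 1.43 log2 units.

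NAC081 (AT5G08790, chr5:2858849-2860558) is ATAF2, a factor of wound and pathogen responses. It was the most abundant of the called genes, at 6.39 log2 CPM in *crr* -Pi, 5.12 in *crr* +Pi, 6.01 in Col-0 -Pi and 5.46 in Col-0 +Pi. The response was 1.27 log2 units (2.41-fold higher under -Pi) in *crr* and 0.55 in Col-0. The -Pi mean was the higher one in both genotypes, and the *crr* means lay outside the Col-0 means on both sides. A share of 7.36% of its exon windows also lies in any other gene, and the opposite-strand neighbour AT5G08780, which was measured, shared the most.

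NAC031 (AT1G76420, chr1:28671806-28674045) is CUC3, the organ boundary gene without a close match to miR164. Its mean was -0.18 log2 CPM in *crr* -Pi, 1.31 in *crr* +Pi, 0.40 in Col-0 -Pi and 1.25 in Col-0 +Pi. The response was -1.49 log2 units (2.81-fold lower under -Pi) in *crr* and -0.85 in Col-0, and the call in *crr* was lost with 1 CPM added (-0.89). As in NAC035, the -Pi mean was the lower one in both genotypes and lowest in *crr*, in the order of the green tissue markers, whose part in the result was not tested.

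NAC004 (AT1G02230, chr1:434965-436922) was just past the limit in *crr* and just short of it in Col-0. It stood at 2.87 log2 CPM in *crr* -Pi, 1.83 in *crr* +Pi, 2.80 in Col-0 -Pi and 1.92 in Col-0 +Pi, with a response of 1.04 log2 units in *crr* and 0.89 in Col-0. The call in *crr* alone thus rests on a difference of 0.16 log2 units, and it was lost with 1 CPM added (0.87). ORE1 (NAC92) stopped just short of the limit in *crr*, with a response of 0.98 log2 units there and 0.35 in Col-0.

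NAC056 (AT3G15510, chr3:5243432-5245510), known as NARS1 from the seed coat, was called in Col-0 only. It stood at 1.40 log2 CPM in *crr* -Pi, 1.83 in *crr* +Pi, 0.81 in Col-0 -Pi and 1.94 in Col-0 +Pi. The response was -0.43 log2 units in *crr* and -1.14 in Col-0 (2.20-fold lower under -Pi), a difference of 0.71 that did not reach 2-fold, and the call in Col-0 was lost with 1 CPM added (-0.82). Col-0 -Pi was the low group here, in contrast to NAC031 and NAC035.

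The Pi responses of the members ran alike in the genotypes, and so did those of all genes. Pearson's r was close to that of all genes and Spearman's rho was higher, and the agreement is not read as a trait of the family. Over the 44 members that passed the limit in both, Pearson's r was 0.89 and Spearman's rho 0.90, and 36 had the same sign, as a description across genes of 4 group means each. Over all 18054 genes the values were 0.90 and 0.72, with 13596 of the same sign, and without NAC035 the members gave 0.88 and 0.90. The 8 members of opposite sign had a response of at most 0.54 log2 units, among them NAC101 (VND6) with -0.01 in *crr* and 0.54 in Col-0. The response was the larger one in *crr* in 33 of 44 members (75.0%), against 57.5% of all genes.

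**Figure D3:**
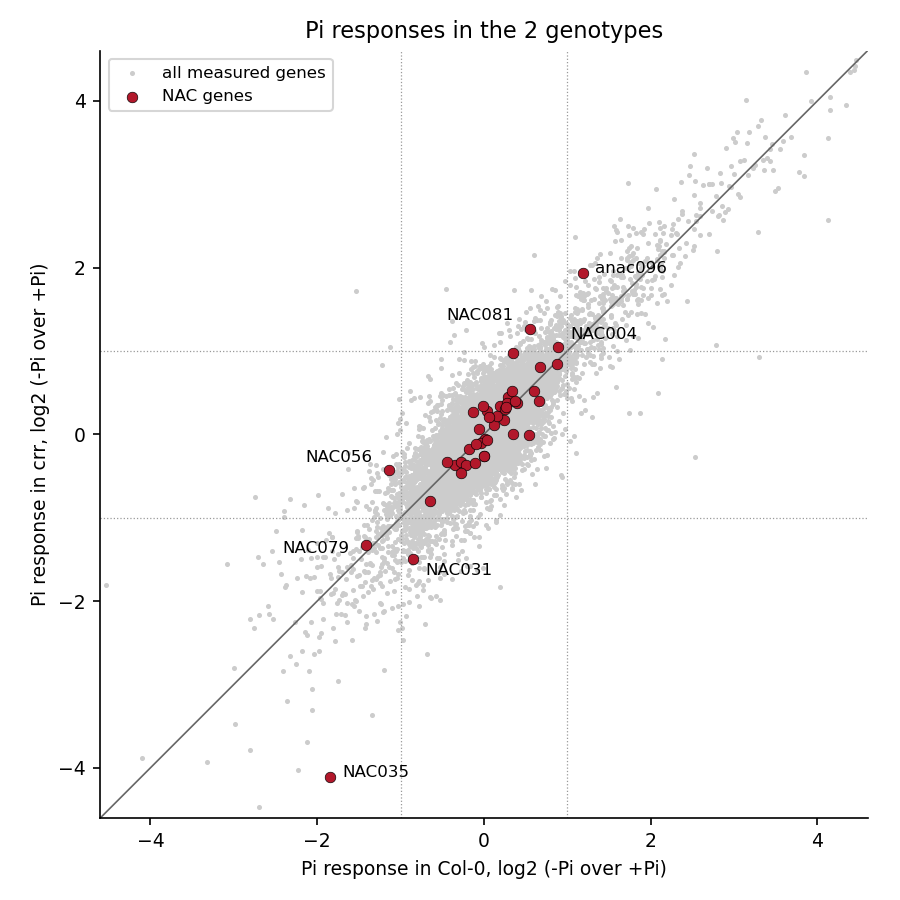
Pi response in *crr* (y axis) against that in Col-0 (x axis), each as the log2 ratio of -Pi over +Pi, for the 44 NAC genes that passed the level limit in both (red) and for all measured genes that did so (grey; 46 genes fall outside the axes). The solid line marks equal responses and the dotted lines 2-fold; most NAC genes lie near the centre, NAC035 lies at -1.85 in Col-0 and -4.11 in *crr*, and NAC029 is not drawn because its Col-0 means were below the limit.

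The 7 NAC genes with a site close to miR164 did not all respond in 1 direction. AT3G12977 was at 2.55 log2 CPM in *crr* -Pi, 4.23 in *crr* +Pi, 2.69 in Col-0 -Pi and 4.19 in Col-0 +Pi, which is a response of -1.68 log2 units in *crr* and -1.50 in Col-0. With NAC079 it was thus lower under -Pi in both genotypes at similar sizes. NAC100 pointed the same way below the limit, with -0.80 in *crr* and -0.65 in Col-0, and NAC1 (NAC021) with -0.37 and -0.22 in the same order. ORE1 pointed the other way, as given above.

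CUC1 (NAC054) and CUC2 (NAC098) were too low for a call in every comparison. CUC1 was between -0.82 and -0.67 log2 CPM in the 4 groups. CUC2 was at -0.54 log2 CPM in *crr* -Pi, -1.74 in *crr* +Pi, -0.85 in Col-0 -Pi and -3.51 in Col-0 +Pi, the widest spread of means among the 56 members after that of NAC035. At such levels a mean of logarithms moves with few reads, and no fold is given. NAC021 shares 33.2% of its exon windows with any other gene, and the opposite-strand gene AT1G08087, which was not analysed here, shared the most.

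**Figure D4:**
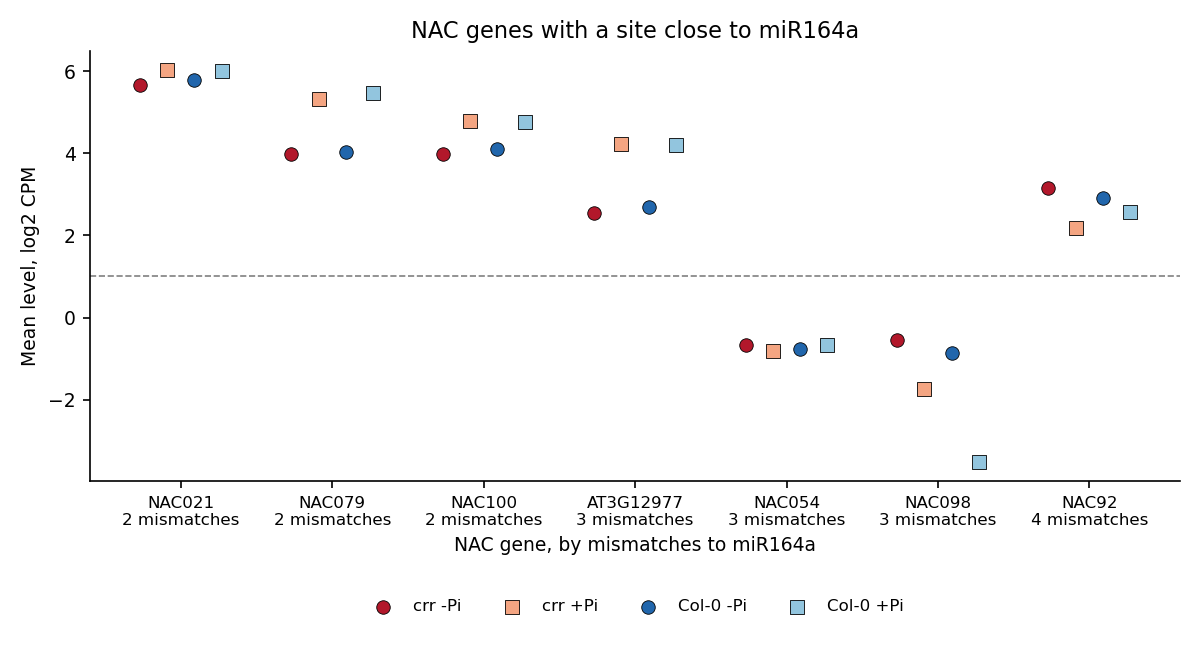
Group means (y axis, log2 CPM) of the 7 NAC genes with a site close to miR164a, ordered on the x axis by the number of mismatches; symbols are as in the plot of called genes and the dashed line is the level limit. NAC079, NAC100 and AT3G12977 have lower -Pi than +Pi means in both genotypes, NAC92 has higher ones, and NAC054 and NAC098 lie below the limit.

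By role, the xylem regulators showed no call. Of all genes passing the limit, 3.88% were called higher and 2.76% lower in *crr*, and 3.20% higher and 2.11% lower in Col-0. At these shares a count of 0 or 1 in a short list is no result about the list, here and in the lists below. Of 15 NAC genes of the secondary wall network 12 were measured, and none of the 8 passing the limit in *crr* or of the 10 in Col-0 reached 2-fold, with medians over the genes passing of -0.04 in *crr* and -0.09 in Col-0. The vessel master gene VND7 (NAC030) was at 0.69 log2 CPM in *crr* -Pi, 0.92 in *crr* +Pi, 0.84 in Col-0 -Pi and 1.17 in Col-0 +Pi. VND4 (NAC007) had responses of -0.36 in *crr* and -0.35 in Col-0. SND3 (NAC010) had responses of 0.00 in *crr* and 0.35 in Col-0 and VND6 (NAC101) of -0.01 and 0.54, and neither difference between the genotypes was called.

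The genes on which this network acts were described in the same way. Of 12 wall and cell death genes of xylem, such as the cellulose synthase genes CESA4, CESA7 and CESA8 and the cysteine protease genes XCP1 and XCP2, none was called, and their medians were -0.56 log2 units in *crr* and -0.55 in Col-0. The summed CPM of 5 xylem markers, all of them in this list, was 223 in *crr* -Pi, 320 in *crr* +Pi, 214 in Col-0 -Pi and 315 in Col-0 +Pi. LAC17, a laccase of lignin formation, had the lowest response in Col-0, with -0.71 in *crr* and -0.94 in Col-0. Among 12 transcriptional regulators downstream of the NAC switches, MYB20 was called in both genotypes, at -0.66 log2 CPM in *crr* -Pi, 1.46 in *crr* +Pi, 0.18 in Col-0 -Pi and 1.67 in Col-0 +Pi. MYB42 was called higher under -Pi in Col-0 only, with a response of 0.06 in *crr* and 1.24 in Col-0, and its responses differed by -1.18 between the genotypes.

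The root cap and phloem regulators also stayed within 2-fold. All 6 root cap genes were measured, with 1 a member, and their medians were 0.37 in *crr* and 0.31 in Col-0. SMB, which drives root cap maturation, had responses of 0.38 in *crr* and 0.32 in Col-0, and the cell death factor ANAC087 had 0.40 in *crr* and 0.66 in Col-0. ANAC046, its partner in root cap death, pointed down, with -0.56 in *crr* and -0.52 in Col-0. Of the 6 death genes that act after them, such as BFN1 and PASPA3, none was called, with medians of -0.12 in *crr* and 0.04 in Col-0. The summed CPM of 4 root cap markers was 164 in *crr* -Pi, 153 in *crr* +Pi, 157 in Col-0 -Pi and 133 in Col-0 +Pi. That of 4 root meristem markers was 59.1 in *crr* -Pi, 50.6 in *crr* +Pi, 59.3 in Col-0 -Pi and 42.9 in Col-0 +Pi, and the part of either tissue in these values was not tested.

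NAC045 and NAC086, which direct the loss of the nucleus in sieve elements, were low, with levels from 0.99 to 1.47 log2 CPM for NAC045 and from 1.55 to 1.89 for NAC086. Neither reached 2-fold. Of the exon windows of NAC045, 28.8% are shared with any other gene, and the measured opposite-strand gene AT3G03190 shared the most. ANAC020, an early phloem regulator, was at 1.03 log2 CPM in *crr* -Pi, against 0.40, 0.36 and 0.27 in *crr* +Pi, Col-0 -Pi and Col-0 +Pi. The 4 enucleation genes had no call, and the summed CPM of 5 phloem markers was 77.6 in *crr* -Pi, 112 in *crr* +Pi, 97.3 in Col-0 -Pi and 110 in Col-0 +Pi.

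In the senescence list the members did not all point one way. NAP was called in *crr* and ORE1 reached 0.98 there, but ORS1 (NAC59), a close relative of ORE1, pointed down, with -0.33 in *crr* and -0.44 in Col-0. The medians over the genes passing the limit were 0.74 in *crr*, over 5 genes, and 0.29 in Col-0, over 4. These sets differ, since NAP passed in *crr* through *crr* -Pi alone and did not pass in Col-0. Over all 5 measured genes the median was 0.74 in *crr* and 0.35 in Col-0. SAG113, the NAP target, was not called, at 0.89 log2 CPM in *crr* -Pi, 1.66 in *crr* +Pi, 0.59 in Col-0 -Pi and 1.09 in Col-0 +Pi. The other chlorophyll breakdown and senescence genes measured were SGR1, NYC1, PAO and SAG13, and none was called.

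In the stress and hormone list, 6 genes passed the limit in each genotype, with 1 called higher and 1 lower under -Pi in *crr* and 0 higher and 1 lower in Col-0. The summed CPM of its 7 measured genes was 342 in *crr* -Pi, 252 in *crr* +Pi, 323 in Col-0 -Pi and 273 in Col-0 +Pi. Beside ATAF2, NAC047, a factor of ethylene-driven leaf movement, had responses of 0.81 in *crr* and 0.68 in Col-0, and ANAC102 had 0.39 and 0.38. ATAF1 (NAC002) and NAC032 differed less, with 0.34 and 0.27 in *crr* and 0.19 and 0.04 in Col-0. RD26, an abscisic acid and dehydration factor that the naming rule did not take in, was called lower in both genotypes, with -1.12 in *crr* and -1.23 in Col-0.

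The membrane-bound NAC genes had no call. Of 14 genes 13 were measured and 12 passed the limit in each genotype, and the medians over these 12 were 0.21 in *crr* and 0.20 in Col-0. NAC017 and ANAC13, which carry stress signals from the mitochondrion, had responses of 0.06 and -0.26 in *crr* and of -0.05 and 0.01 in Col-0. Of 9 measured genes of the mitochondrial stress response that these proteins are known to activate, all passed the limit. In *crr* 3 were called higher and in Col-0 2, against 3.88% and 3.20% of all genes, and these counts were not tested. AT12CYS-2 was called higher in both genotypes, at 2.41 log2 CPM in *crr* -Pi, -3.56 in *crr* +Pi, 2.18 in Col-0 -Pi and -3.35 in Col-0 +Pi. It passed the limit through the -Pi means alone, and the size of its difference depends on the very low +Pi means. OM66 was higher by 2.20 log2 units in *crr* and 2.16 in Col-0, and UGT74E2 by 1.05 in *crr* and 0.89 in Col-0. The alternative oxidase gene AOX1A, the best known of them, differed by 0.27 in *crr* and 0.35 in Col-0.

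NAC053 and NAC078, the proteasome stress pair, had responses of -0.18 and -0.11 in *crr* and of -0.18 and -0.03 in Col-0. In the list of DNA damage, endoplasmic reticulum and ribosome stress, 4 of 5 genes were measured and all were within 0.16 log2 units of 0 in both genotypes, with SOG1, the central factor of DNA damage, at -0.13 in *crr* and -0.08 in Col-0.

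**Figure D5:**
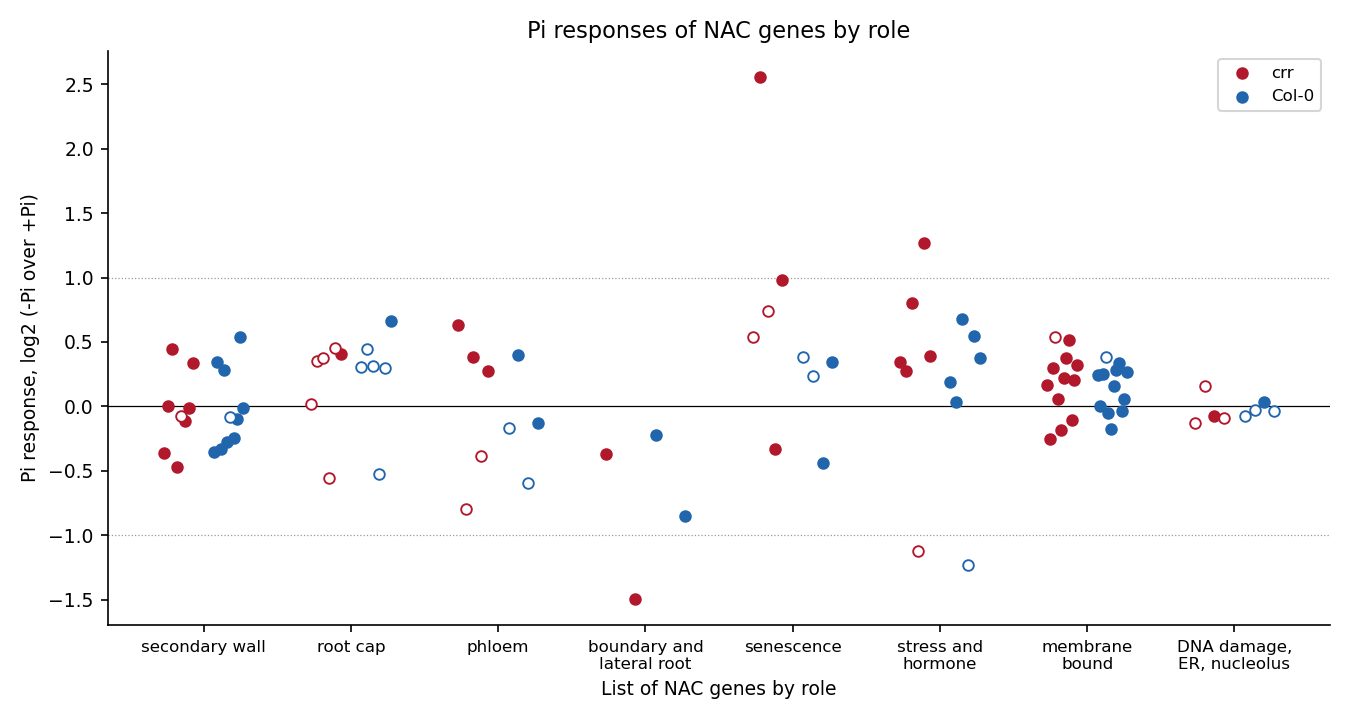
Pi response (y axis, log2 ratio of -Pi over +Pi) of the NAC genes of 8 role lists (x axis), with *crr* in red left of Col-0 in blue; filled points are members of the family by the naming rule, open points are NAC genes outside it, and dotted lines mark 2-fold. Points are drawn for genes passing the level limit, and the points past 2-fold are NAC029 (2.56) and NAC081 (1.27) upwards in *crr*, NAC031 (-1.49) downwards in *crr*, and RD26 downwards in both genotypes.

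Between the genotypes no NAC gene was called on either medium. No member was at least 2-fold higher or lower in *crr* than in Col-0, under -Pi among 44 members passing the limit, against 0.171% higher and 0.299% lower of 18088 genes, and under +Pi among 44, against 0.0111% higher and 0.0780% lower of 17958 genes. At backgrounds this low, a count of 0 among 44 members is no result about the family. The median difference between *crr* and Col-0 was -0.03 log2 units under -Pi and -0.03 under +Pi over the members passing the limit.

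The genotype differences under +Pi over all genes served as a yardstick of size. Their 95th percentile, without sign, was 0.535 log2 units for genes at 1 to 3 log2 CPM, 0.270 at 3 to 5, 0.178 at 5 to 7 and 0.144 from 7. Under -Pi, 6 of 44 members lay past this value for their level, against 13.5% of all genes, and under +Pi 2 of 44, against 5.01% of all genes, a share that the yardstick fixes. On both media the share of members was close to that of all genes, so these counts are no result about the members. The members past it under -Pi were NAC029 (0.76), ANAC020 (0.67), NAC056 (0.59), NAC010 (-0.42), NAC081 (0.38) and NAC041 (-0.30). Of these, NAC029, ANAC020 and NAC056 passed the level limit through *crr* -Pi alone. The members past the yardstick under +Pi were NAC081 (-0.34) and NAC59 (-0.23). NAC081 was the member past it on both media, higher in *crr* under -Pi and lower in *crr* under +Pi.

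Some larger differences lay under the level limit and were not called. NAC035 was 1.98 log2 units lower in *crr* -Pi than in Col-0 -Pi, where both means were under 1 log2 CPM. anac096 was 0.94 lower in *crr* +Pi than in Col-0 +Pi, and ANAC011 was 1.14 higher in *crr* +Pi, at 0.47 log2 CPM in *crr* +Pi and -0.67 in Col-0 +Pi. NAC005 was 0.88 lower in *crr* -Pi than in Col-0 -Pi.

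The difference of the Pi responses, that of *crr* minus that of Col-0, was called in 1 member in each direction among 48 passing the limit, which was set here on the highest of the 4 means. That is 2.08% higher and 2.08% lower, against 0.566% higher and 0.604% lower of 18383 genes. NAC029 was the higher one, with 1.18 log2 units, as large or larger in 64 genes. It passed the limit through *crr* -Pi (1.66 log2 CPM) alone, with its other means below 1 log2 CPM. NAC035 was the lower one, with -2.26, as low or lower in 4 genes, itself included. Both calls were lost with 1 CPM added before the logarithm, where the differences were 0.70 for NAC029 and -0.98 for NAC035, and with a level limit of 3 log2 CPM. Since this difference uses the same means as the comparisons above, it adds no independent reading of these genes.

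Among members passing the level limit but short of 2-fold, the next largest differences of response were those of anac096 (0.74), NAC081 (0.72), NAC056 (0.71), NAC031 (-0.64), NAC92 (0.63), NAC101 (-0.55) and ANAC020 (0.54). In anac096, NAC081, NAC031 and NAC92 the response in *crr* had the sign of that in Col-0 and was larger. In NAC056 it had the same sign and was smaller. The summed CPM of the root hair markers was higher under -Pi in both genotypes, like that of anac096, NAC004 and NAC029, and their part in these results was not tested.

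Members that lie next to each other in the genome were alike in some cases and not in others. NAC003, NAC004 and NAC005 stand in a row on chromosome 1, with gaps of 4244 and 937 bases. NAC003 and NAC004 had near-equal responses, of 0.84 and 1.04 in *crr* and 0.87 and 0.89 in Col-0, and NAC005, which was below 0 log2 CPM throughout, had -0.07 in *crr* and 0.79 in Col-0. NAC003 and NAC005 share few 50-base windows, at most 1.1% of those of NAC003.

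On chromosome 3, NAC055 and NAC056 lie 7235 bases apart and pointed in opposite directions. The jasmonate-responsive NAC055, under the level limit, had differences of 0.91 in *crr* and 0.98 in Col-0, against -0.43 and -1.14 for NAC056. ANAC050, ANAC052 and NAC053 lie within 129 and 14 bases of each other, and their responses were between -0.18 and 0.12 in both genotypes. ANAC050 and ANAC052 are known partners of a histone demethylase. The membrane-bound neighbours NAC68 (NTM1) and NAC69 on chromosome 4 had responses of 0.38 and 0.52 in *crr* and of 0.28 and 0.34 in Col-0. NAC68 shares 18.2% of its windows with any other gene, and AT4G01520, a NAC gene not analysed here, shared the most.

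The 300 bases upstream of the annotated start of each gene were searched on both strands for P1BS, the element GNATATNC bound by the phosphate starvation regulator PHR1. It was found in 3 of 56 members (5.36%), namely NAC029, NAC007 and NAC92, against 6.59% of 19997 genes. The core CACG of the sequence bound by NAC proteins was found in 33 members (58.9%), against 51.4% of all genes. These matches are descriptions of letters, and a window without a match says nothing about the factor.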

How the data were processed

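According to the study's methods and the notes of the submitters, reads were trimmed with cutadapt 1.8, aligned to TAIR10 with STAR 2.5.3a and counted with HTSeq 0.9.1. RSEM 1.2.31 is also listed. Genes reaching 1 CPM in a sample were retained by the authors, who normalised by TMM in edgeR 3.24.3 under R 3.5.3. The deposited table gives log2 CPM, averaged by the authors over the 3 libraries of a group. Averages of logarithms hide the spread and weight low libraries strongly. The 5 deposited comparison tables hold the authors' own fold changes, p-values and F statistics and were not used.

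Differences of group means were taken in Python 3.11.15 with pandas 2.3.3 and numpy 2.4.6, and the call rule was tested on simulated data. No limma fit was possible on group means, as the planned test for single libraries required. Gene positions were those of the table, and all 56 members had the same coordinates in the RefSeq annotation of TAIR10.1, as had 99.35% of 19998 genes found there. Named were all members called in a comparison, up to 4 of the others in each role list, CRR and called genes acting with or after NAC factors; other names were added after their values were seen. Members and lists were chosen with earlier results of these data known. Other level limits, fold limits, a pseudocount, centring and the name rule alone were tried.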

Additional observations from a re-analysis of the deposited data

How the results depend on the processing

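The alternatives tried were no level limit, a limit of 3 log2 CPM, a fold limit of 1.5 and 1 CPM added before the logarithm. Differences centred on the median of all genes and members by name alone were also tried. Level limits, the fold limit and the name rule leave each difference unchanged, and adding 1 CPM cannot turn a difference of 2 means. That no direction turned is therefore no check of the results. Of the 13 single-gene calls, all kept their call with centring. None could be lost with the fold limit of 1.5 or without a level limit. At 3 log2 CPM 10 were lost, and with 1 CPM added 6 were lost. The values with 1 CPM added were 0.70 for the difference of responses of NAC029 and -0.98 for that of NAC035. Most calls in the family thus rest on genes of low level. Shares of all genes passing each limit follow the counts of members. Without a level limit, 3 members were higher under -Pi in Col-0 (4.19% of all genes), 1 was lower in crr than in Col-0 under -Pi (1.06%), 2 were higher in crr than in Col-0 under +Pi (0.395%) and 2 were called lower in the difference of responses (1.51%). At 3 log2 CPM, 1 member was higher (2.82%) and 1 lower (2.02%) under -Pi in crr, 0 higher (2.5%) and 1 lower (1.54%) in Col-0, and the difference of responses was called in 0 members in either direction (0.144% higher, 0.171% lower). With the fold limit of 1.5, 8 members were higher under -Pi in crr (8.11%), 6 were higher (6.91%) and 5 lower (6.04%) in Col-0, 3 were higher in crr than in Col-0 under -Pi (1.02%), and the difference of responses was called higher in 5 (2.55%) and lower in 2 (2.61%). With 1 CPM added, 0 members were higher under -Pi in Col-0 (2.51%) and the difference of responses was called in 0 in either direction (0.131% each). By name alone, 0 members were higher in Col-0, since anac096 is a member through its description. No paired analysis was possible because the deposited columns are group means without replicate numbers, and leaving out single replicates was not run for the same reason. Depth per library was not used here, so no limit of detection is given.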

Other observations

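The naming rule missed part of the family. A list of 97 NAC gene IDs known from the Arabidopsis genome held 77 measured genes, of which 56 were members, and with AT3G12977 and NTL9, which the list did not hold, 23 measured NAC genes stood outside the rule. Among these, RD26 and AT3G12977 were at least 2-fold lower under -Pi in both genotypes, as given in the report, and their genotype differences were at most 0.14 log2 units in size.

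The gene anac071, known from the reunion of cut tissue, was too low for a call, at -1.86 log2 CPM in crr -Pi, -2.73 in crr +Pi, -0.57 in Col-0 -Pi and -3.83 in Col-0 +Pi. anac028, a gene of the phloem list, stood at 0.79 log2 CPM in crr -Pi, against 1.58 in crr +Pi, 1.48 in Col-0 -Pi and 1.65 in Col-0 +Pi. Its response was -0.79 log2 units in crr and -0.17 in Col-0, short of 2-fold. JUB1, a gene that delays senescence, had responses of 0.74 in crr and 0.24 in Col-0. The stem cell and root cap gene FEZ had 0.02 in crr and 0.30 in Col-0. anac084 stood at 5.22 log2 CPM in crr -Pi, 4.59 in crr +Pi, 5.07 in Col-0 -Pi and 4.79 in Col-0 +Pi, which is a response of 0.63 in crr and 0.28 in Col-0.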
